A study of Mus musculus with 18 samples.

Results

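The 8 genes described here are the homeobox genes Dlx1, Dlx2, Dlx5, Dlx6, Gsx1 and Gsx2, the zinc-finger gene Sp8, and Dlx6os1, an antisense RNA gene beside Dlx6. They were chosen by name as regulators shared across the subpallium, the ventral part of the embryonic forebrain. All 8 symbols were found among the 24062 lines of the count table. Poly(A)-selected RNA from C57BL/6 mice was sequenced from Chd2+/- animals (HET) and from wild-type animals (WT). Chd2 encodes a chromatin remodeller, and the labels do not say which part of the gene the allele alters. The 6 groups were medial ganglionic eminence (MGE) at E13.5, HET and WT, cortex at E13.5, HET and WT, and hippocampus at P45, HET and WT, with 3 libraries each. The labels do not say that the replicates came from separate animals, so p-values measure the spread between these libraries, which may in part be technical.

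GABAergic neurons of the forebrain are born in the ganglionic eminences of the subpallium. There, Gsx1 and Gsx2 act in dividing progenitors, and the Dlx genes follow, Dlx1 and Dlx2 in late progenitors and Dlx5 and Dlx6 mainly in cells that are becoming neurons. Dlx proteins switch on genes of GABA synthesis and are needed for interneurons to migrate out of the eminences into the cortex. In dissected embryonic cortex, Dlx RNA is therefore commonly read as a mark of interneurons that have arrived from below. Sp8 acts in the lateral and caudal eminences and, separately, in progenitors of the dorsal cortex, where it takes part in area patterning.

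The Dlx genes lie as adjacent pairs. In GENCODE M21 (GRCm38), Dlx1 lies at chr2:71528113-71533981 on the plus strand and Dlx2 at chr2:71543408-71546754 on the minus strand, with 9426 bases between them. Dlx6 lies at chr6:6863334-6868568 on the plus strand and Dlx5 at chr6:6877805-6882085 on the minus strand, with 9236 bases between them. Dlx6os1 lies at chr6:6820189-6871592 on the minus strand, spans Dlx6 and shares no exon base with it. Gsx1 is at chr5:147188696-147190947, Gsx2 at chr5:75075601-75077893 and Sp8 at chr12:118846329-118852576, all on the plus strand. An antisense gene, Dlx1as, shares 335 exon bases with Dlx1, or 6.21% of the Dlx1 exons and 20.6% of the Dlx1as exons. The strand setting of the counting is not given in the sources used here, so reads from those shared bases cannot be assigned to either gene.

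RefSeq start-site windows of 300 bases (250 before the start and 50 after it, GRCm38.p6) were found for 6 of the 8 genes, not for Dlx5 and Dlx6. Those of Dlx2, Dlx6os1 and Sp8 are shown because the results turn on these genes: Dlx2 had the highest level per kilobase in MGE, Dlx6os1 the largest difference between genotypes in cortex, and Sp8 the opposite order of tissues. Capitals mark TAATTA, a core that many homeodomains bind, CAGCTG, an E-box of proneural factors, and GGGCGG or its reverse complement CCGCCC, a GC box of Sp factors, which do not overlap each other. Where RefSeq gives several windows, the most upstream is shown. The window of Dlx2 lies at chr2:71546705-71547004 (minus strand), that of Dlx6os1 at chr6:6869484-6869783 (minus strand) and that of Sp8 at chr12:118846079-118846378 (plus strand).
Dlx2: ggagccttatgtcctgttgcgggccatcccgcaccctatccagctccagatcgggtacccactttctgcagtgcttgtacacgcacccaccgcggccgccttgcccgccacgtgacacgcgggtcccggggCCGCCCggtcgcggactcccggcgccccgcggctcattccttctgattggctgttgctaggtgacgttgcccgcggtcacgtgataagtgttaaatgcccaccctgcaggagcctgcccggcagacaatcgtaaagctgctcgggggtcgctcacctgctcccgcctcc
Dlx6os1: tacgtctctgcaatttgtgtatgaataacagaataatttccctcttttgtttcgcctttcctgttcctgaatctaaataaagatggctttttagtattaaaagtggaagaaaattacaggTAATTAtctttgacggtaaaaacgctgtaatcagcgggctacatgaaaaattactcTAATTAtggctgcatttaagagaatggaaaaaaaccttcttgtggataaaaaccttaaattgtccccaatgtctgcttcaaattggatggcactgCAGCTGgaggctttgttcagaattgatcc
Sp8: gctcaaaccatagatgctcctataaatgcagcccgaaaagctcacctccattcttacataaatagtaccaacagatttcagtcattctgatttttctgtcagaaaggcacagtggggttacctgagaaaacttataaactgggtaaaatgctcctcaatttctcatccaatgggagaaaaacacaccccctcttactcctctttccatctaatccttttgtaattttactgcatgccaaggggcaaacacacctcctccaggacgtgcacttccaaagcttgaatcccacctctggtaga

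The Dlx6os1 window held 2 copies of TAATTA and 1 of CAGCTG, the Dlx2 window held 1 GC box, and this Sp8 window held none of the 3 motifs. The other 2 Sp8 windows, not shown, held 1 GC box and 1 TAATTA between them, and the other Dlx6os1 window held 1 TAATTA. Over both strands of 32851 RefSeq windows of the same length, 5.29% held TAATTA, 16.3% held CAGCTG and 35.7% held GGGCGG. The 3 windows also differed in base composition, with 66.3% G and C in that of Dlx2, 35.7% in that of Dlx6os1 and 43.0% in that of Sp8. The Dlx6os1 start site used by RefSeq lies 2059 bases inside the GENCODE gene, so the whole window is exon sequence in that annotation. A motif match describes letters and shows no binding.

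Libraries held 26841671 to 38802765 counts. Levels are given as counts per 1000000 (CPM), scaled over all 18 libraries by the trimmed mean of M values (TMM). Chd2 averaged 139 ± 4.38, 124.5 ± 0.710 and 66.0 ± 1.57 CPM in HET MGE, cortex and hippocampus, against 163 ± 10.97, 147 ± 5.17 and 74.5 ± 4.12 CPM in WT (SD, n = 3 each). HET and WT ranges of Chd2 did not overlap in any tissue, although no tissue passed the adjusted test (edgeR's quasi-likelihood test with Benjamini-Hochberg adjustment, adjusted p = 0.980, 0.578 and 0.191). The dissected tissues carried their markers: Nkx2-1, which specifies the MGE, averaged 918 and 836 CPM in HET and WT MGE and 1.03 CPM or less in the other groups, and Emx1, a dorsal regulator, averaged 154 and 125 CPM in HET and WT cortex and 0.384 and 0.528 CPM in HET and WT MGE. In MGE, Xist, transcribed from the inactive X chromosome of females, averaged 0.793 CPM in HET and 1797 CPM in WT, so genotype and sex markers divide the MGE libraries in the same way and their effects cannot be told apart. In cortex, HET 1 and HET 2 stood apart from HET 3 and the WT libraries on several gene lists. The genotype results in cortex that rest on these libraries are also given for HET 1 and HET 2 without HET 3, and for HET 3 alone. Both splits were picked out after the values were seen, so calls made without HET 3 describe the split and are no separate test.

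**Figure D1:**
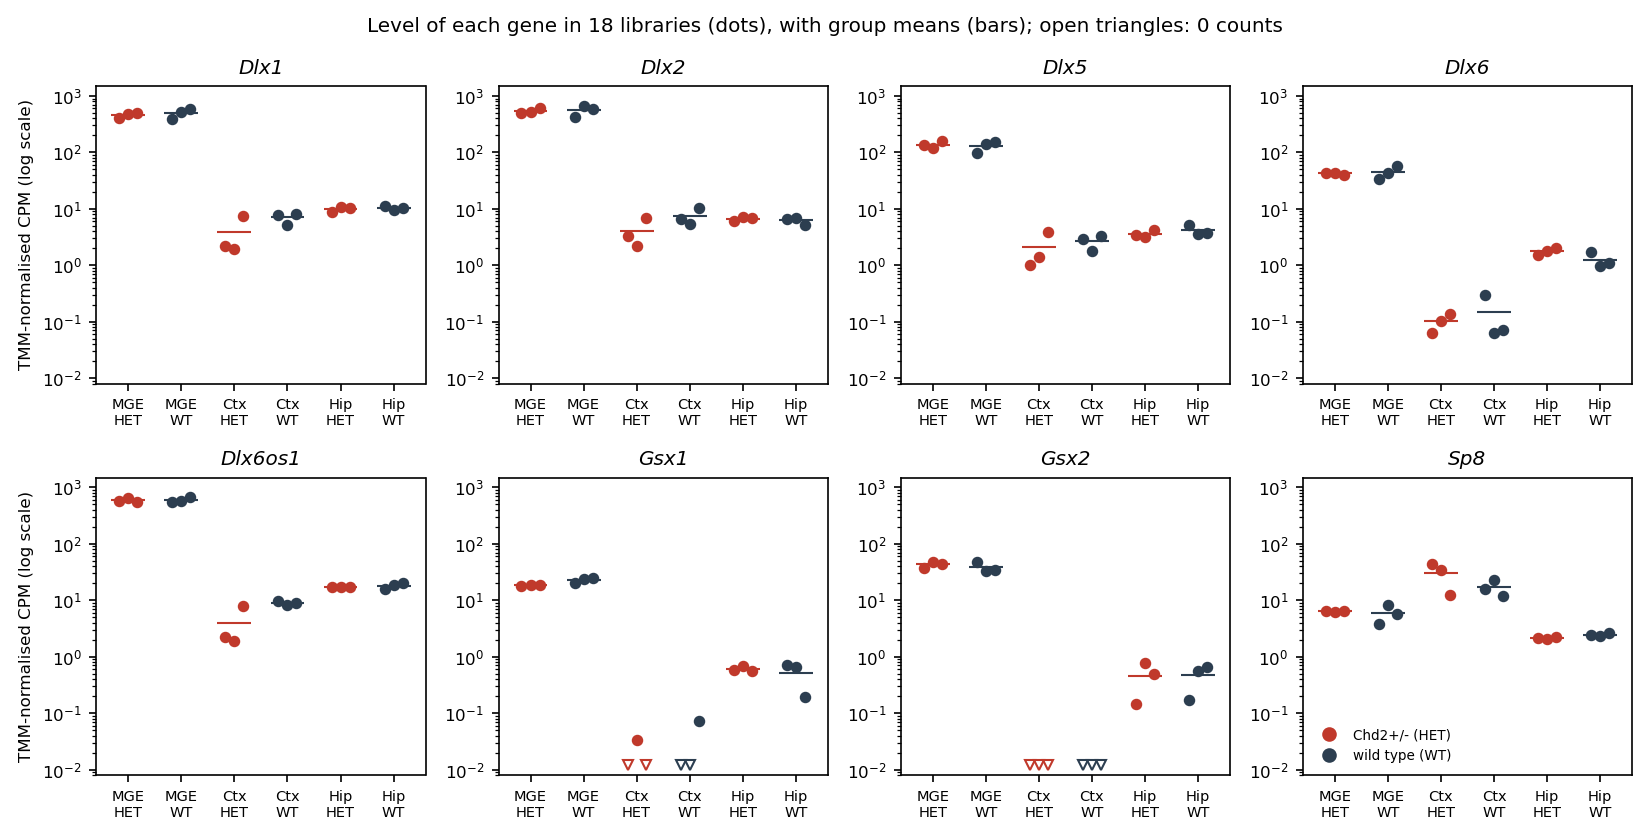
TMM-normalised CPM (log axis) of each of the 8 genes in 18 libraries; dots are libraries, bars are group means of 3 libraries, and open triangles at the bottom mark libraries with 0 counts. For 7 genes the panels have their highest dots in MGE, while Sp8 is highest in cortex, where HET 1 and HET 2 reach 44.5 and 35.1 CPM.

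The regulators were first compared between MGE and cortex at the same age, within each genotype. In both genotypes 7 of the 8 genes were higher in MGE, and Sp8 was lower. All 8 passed the test in HET and all 8 in WT, among 41.0% of 16125 genes that passed in HET and 44.3% in WT. The share of all genes that passed as higher in MGE was 19.0% in HET and 21.4% in WT, and as lower 22.0% and 22.9%. All 8 also passed in both genotypes with any 1 of the 18 libraries left out. The genes had been chosen as subpallial, so for 7 of them the direction describes the choice, and the levels are the new information.

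Among the progenitor genes, Gsx2 had 37.5, 47.9 and 44.2 CPM in HET MGE and 48.0, 33.7 and 35.0 CPM in WT MGE. It had no count in any of the 6 cortex libraries. Summed over each group, 4732 counts in HET MGE and 4015 in WT MGE stood against 0 in cortex, which is at least 1392-fold higher in HET and at least 1224-fold higher in WT, with a floor of 3 counts over the cortex group. No other gene of the 8 was without a count in every cortex library. Gsx1 had 2015 counts in HET MGE and 2286 in WT MGE, against 1 in HET cortex and 2 in WT cortex. Its ratio of CPM between MGE and cortex was 1778 in HET (95% exact counting interval 319 to 70270) and 1046 in WT (289 to 8639). Both Gsx genes were thus at or near 0 in cortex, and intervals and floors here cover counting error only.

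The Dlx genes were low in cortex but above the Gsx genes. Dlx1 had 407, 477 and 502 CPM in HET MGE and 384, 520.2 and 578 CPM in WT MGE. In cortex it had 2.21, 1.96 and 7.55 CPM in HET and 7.64, 5.23 and 8.14 CPM in WT. Every MGE library of Dlx1 lay far above every cortex library. The fitted log2 difference, MGE minus cortex, was 6.86 ± 0.40 (SE) in HET and 6.14 ± 0.38 in WT. The HET value depends on the cortex libraries: it was 7.80 ± 0.25 without cortex HET 3 and 5.94 ± 0.32 with HET 3 as the only cortex HET library. Dlx2, the neighbour of Dlx1 and like it needed in late progenitors, had 499, 509 and 599 CPM in HET MGE and 423, 658 and 594 CPM in WT MGE. In cortex Dlx2 had 3.36, 2.17 and 6.77 CPM in HET and 6.499, 5.42 and 10.1 CPM in WT. Its difference was 7.01 ± 0.35 in HET and 6.25 ± 0.34 in WT. For Dlx2, too, the tissues did not overlap.

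Dlx5 had 135, 121 and 156 CPM in HET MGE and 99.2, 138 and 153 CPM in WT MGE. In cortex it had 1.02, 1.42 and 3.81 CPM in HET and 2.95, 1.75 and 3.30 CPM in WT, a log2 difference of 6.01 ± 0.36 in HET and 5.61 ± 0.35 in WT. Dlx5 thus showed the smallest gap among the 4 Dlx homeobox genes. Its partner Dlx6 had 43.6, 43.6 and 39.5 CPM in HET MGE and 33.5, 43.3 and 56.5 CPM in WT MGE. In cortex Dlx6 was nearly undetected, with 2, 3 and 5 counts in HET and 10, 2 and 2 counts in WT. Its difference, 8.62 ± 0.35 in HET and 8.17 ± 0.34 in WT, was the largest of the Dlx genes. Dlx6os1, the RNA that runs across Dlx6, had 571, 653 and 549.5 CPM in HET MGE and 562, 570.3 and 669 CPM in WT MGE. In cortex it had 2.21, 1.86 and 8.02 CPM in HET and 9.78, 8.26 and 8.79 CPM in WT, a difference of 7.17 ± 0.40 in HET and 6.07 ± 0.37 in WT. Its HET difference was 8.19 ± 0.17 without cortex HET 3 and 6.20 ± 0.21 with HET 3 alone. Like the homeobox genes, it separated the tissues completely. The adjusted p of these 5 genes lay between 5.27e-12 (Dlx6, HET) and 3.41e-09 (Dlx5, WT) by edgeR's quasi-likelihood test with Benjamini-Hochberg adjustment.

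Sp8 went the other way. It had 44.5, 35.1 and 12.3 CPM in HET cortex and 16.01, 22.7 and 12.0 CPM in WT cortex. The MGE libraries had 6.48, 6.24 and 6.36 CPM in HET and 3.86, 8.36 and 5.63 CPM in WT, all below every cortex library. The log2 difference, MGE minus cortex, was -2.27 ± 0.36 in HET (adjusted p = 1.08e-04) and -1.51 ± 0.36 in WT (adjusted p = 0.00296, edgeR's quasi-likelihood test with Benjamini-Hochberg adjustment). With HET 3 as the only cortex HET library the HET difference was -0.95 ± 0.32, and without HET 3 it was -2.63 ± 0.25. In these dissections Sp8 was therefore lower in MGE than in cortex. The lateral and caudal eminences, where Sp8 acts, were not sampled, so the level of Sp8 in the rest of the subpallium was not measured. Of its relatives, Sp9, which works with Sp8 in interneuron precursors, was higher in MGE by 6.32 ± 0.42 in HET and 5.64 ± 0.41 in WT on the log2 scale. Sp5 was lower in MGE, by a log2 difference of -3.91 ± 0.45 in HET (adjusted p = 2.67e-06) and -2.62 ± 0.43 in WT (adjusted p = 1.14e-04, same edgeR test and adjustment). Dlx3 and Dlx4, the remaining Dlx genes of the mouse, averaged 0.246 CPM or less in every group.

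Against their own MGE mean, HET and WT cortex held 0.845% and 1.42% of the level of Dlx1, 0.765% and 1.32% of Dlx2, 1.52% and 2.05% of Dlx5, and 0.682% and 1.49% of Dlx6os1. For Dlx6 the shares were 0.241% and 0.327%. The HET shares depend on HET 3: without it they were 0.451% for Dlx1, 0.516% for Dlx2, 0.890% for Dlx5, 0.344% for Dlx6os1 and 0.196% for Dlx6, and in HET 3 alone they were 1.63%, 1.26%, 2.78%, 1.36% and 0.330% in the same order of genes. Of other genes that migrating interneurons express, Lhx6, a regulator of MGE-born interneurons, stood at 1.97% and 3.82%, Gad1, a GABA-synthesising enzyme, at 3.24% and 4.71%, Gad2, another such enzyme, at 1.78% and 3.35%, and Sp9 at 1.23% and 2.01%. These HET shares depend on HET 3 as well. Without it they were 0.95% for Lhx6, 1.57% for Gad1, 1.01% for Gad2 and 0.730% for Sp9. In HET 3 alone they were 4.01%, 6.58%, 3.30% and 2.23% in the same order of genes. Dlx5 thus lay above Sp9 in both genotypes, while Dlx6 had the lowest share of these 9 genes in both. No difference between these shares was tested. In bulk RNA, fewer cells of a type and less RNA per cell cannot be told apart.

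The order within a tissue was read per kilobase of exon, over the merged exons of all annotated transcripts. That length was 5396 bases for Dlx1 and 2855 bases for Dlx2, and the transcripts present may be shorter. In HET MGE, Dlx2 stood first with 188 ± 19.3 CPM per kilobase, then Dlx6os1 (114 ± 10.6), Dlx1 (85.6 ± 9.07), Dlx5 (60.7 ± 7.82), Gsx2 (26.0 ± 3.17), Dlx6 (17.8 ± 0.995), Gsx1 (10.4 ± 0.359) and Sp8 (1.40 ± 0.0257; SD, n = 3). WT MGE had the same order, with Dlx2 at 196 ± 42.5 and Sp8 at 1.31 ± 0.498 CPM per kilobase. In cortex Sp8 stood first, at 6.72 ± 3.63 in HET and 3.70 ± 1.18 CPM per kilobase in WT, and Dlx2 was next, at 1.44 ± 0.836 and 2.57 ± 0.861 CPM per kilobase in HET and WT. In hippocampus Dlx6os1 stood first, at 3.34 ± 0.0476 in HET and 3.52 ± 0.481 CPM per kilobase in WT. Per kilobase, the highest mean was thus that of a different gene in each tissue. The order depends on the lengths used. In CPM alone Dlx6os1 had the highest MGE mean, 591 in HET and 600 in WT, against 535 and 559 for Dlx2. Neighbours closer than their SDs, such as Sp8 and Dlx2 in WT cortex, or Dlx5, Dlx6os1 and Dlx1 in HET cortex at 0.724 to 0.922 CPM per kilobase, have no settled order.

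Dlx1 and Dlx2 act together with a set of partner and target factors. Of 15 such genes, 12 passed the test as higher in HET MGE than in HET cortex and 11 as higher in WT MGE than in WT cortex, and none as lower, with a median log2 difference of 2.48 in HET and 2.68 in WT against -0.01 over all genes in each. Among them Lhx8, a factor of MGE-born cholinergic neurons, differed by 11.05 ± 0.39 in HET and 10.71 ± 0.39 in WT. Of all genes, 19.0% passed as higher in HET MGE and 21.4% in WT MGE. Most of the partner factors were higher in MGE, as the Dlx genes were. They were listed for their link to the Dlx genes, so this direction may describe the choice.

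The question of the study was what loss of 1 Chd2 copy does to expression. In HET against WT MGE, none of the 8 genes passed the adjusted test, where 0.0479% of 14624 genes passed (7 genes). Those 7 include all 5 genes of a sex-linked list, 4 higher and 1 lower in HET. Fitted log2 fold changes of the 8 genes, HET minus WT, lay between -0.31 and 0.15. Their median was -0.04, against 0.01 over all genes. The Dlx genes were close to 0: -0.10 ± 0.15 for Dlx1, -0.06 ± 0.15 for Dlx2, 0.08 ± 0.16 for Dlx5, -0.07 ± 0.17 for Dlx6 and -0.02 ± 0.11 for Dlx6os1 (SE). Adjusted p-values ran from 0.980 to 0.988 (edgeR's quasi-likelihood test with Benjamini-Hochberg adjustment). DESeq2, which called 0.226% of genes, and limma-voom also called none of the 8, and 1 of them was under an unadjusted p of 0.05, as 4.51% of all genes were.

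That gene was Gsx1, the partner of Gsx2 in ventral progenitors. It had 17.7, 18.4 and 19.0 CPM in HET MGE and 19.9, 24.2 and 24.5 CPM in WT MGE, so every HET library lay below every WT library. Its log2 fold change was -0.31 ± 0.12, with an adjusted p of 0.980 by edgeR's quasi-likelihood test with Benjamini-Hochberg adjustment (0.0223 before adjustment). Of all genes, 9.70% had groups that did not overlap in MGE, 5.47% with HET lower. Gsx2 had overlapping groups and a fold change of 0.15 ± 0.15. As stated above, HET and WT MGE also differed in sex markers, and the part of sex in the Gsx1 values was not tested.

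The genes around them in MGE gave the same count of calls. None of the 15 partner and target factors, of the 4 GABA genes or of 9 genes of MGE identity passed the test between HET and WT, with median log2 fold changes of -0.14, -0.03 and 0.07. Gad1 and Gad2 were at -0.19 ± 0.17 and 0.10 ± 0.16. Lhx6 was at 0.12 ± 0.16 and Nkx2-1 at 0.13 ± 0.10.

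In cortex, 5 of the 8 genes had enough counts to be tested, and none passed the adjusted test between HET and WT, as none of 14757 genes did (0.0%). Without adjustment, 7.89% of genes and none of these 5 were under 0.05, and DESeq2 called 11 genes (0.0746%), none of them among the 5. The fold changes were larger than in MGE, with larger errors. Dlx1 was at -0.82 ± 0.51 on the log2 scale, Dlx2 at -0.82 ± 0.42, Dlx5 at -0.34 ± 0.51, Dlx6os1 at -1.13 ± 0.51 and Sp8 at 0.87 ± 0.44 (SE). The median was -0.82 over the 5 genes and 0.01 over all genes tested. Adjusted p-values were 0.578 to 0.794 by edgeR's quasi-likelihood test with Benjamini-Hochberg adjustment. The other 3 genes, Dlx6, Gsx1 and Gsx2, had too few counts for a comparison in cortex.

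**Figure D2:**
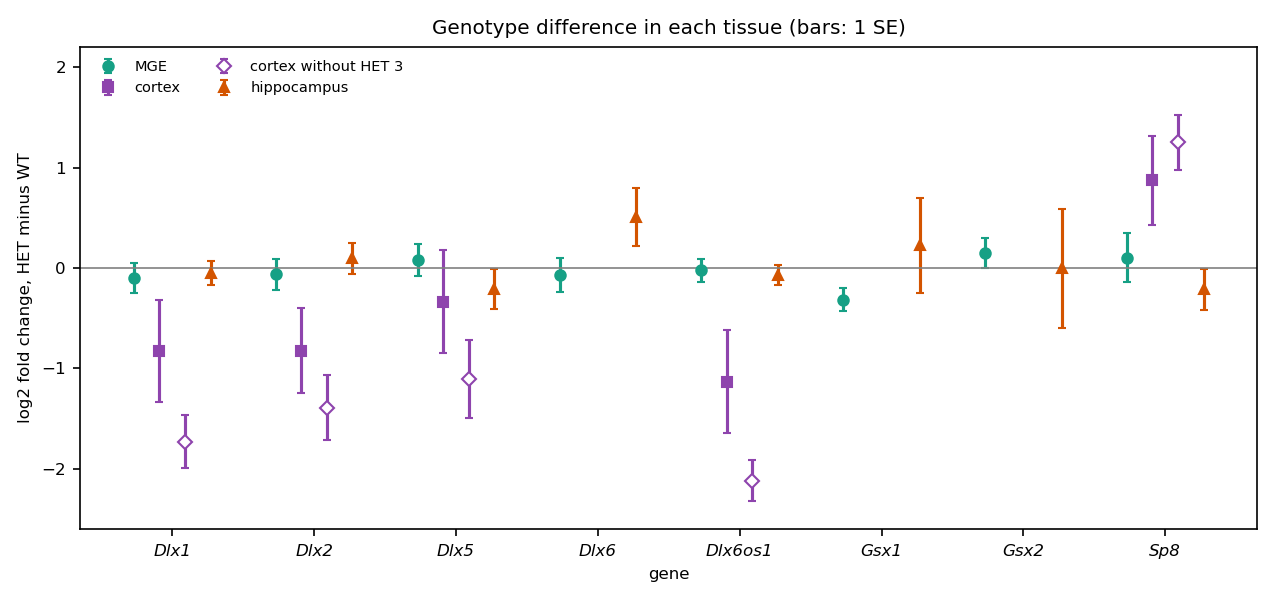
Log2 fold change of each gene, HET minus WT, with bars of 1 SE, from separate fits of 3 HET and 3 WT libraries per tissue, and for cortex also without HET 3 (open diamonds). MGE values lie between -0.31 and 0.15, and hippocampus values between -0.21 and 0.51 (Dlx6). In cortex Dlx1, Dlx2, Dlx5 and Dlx6os1 lie below 0 and Sp8 above it, farther from 0 when HET 3 is left out.

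The 3 HET libraries of cortex did not lie together. HET 1 and HET 2 had the lowest Dlx1 (2.21 and 1.96 CPM), Dlx2 (3.36 and 2.17 CPM), Dlx5 (1.02 and 1.42 CPM) and Dlx6os1 (2.21 and 1.86 CPM) of the 6 libraries and the highest Sp8 (44.5 and 35.1 CPM). HET 3 lay within the WT range for Dlx1, Dlx2 and Sp8, above it for Dlx5 (3.81 CPM) and just below it for Dlx6os1 (8.02 CPM, against a lowest WT value of 8.26 CPM). Dlx6os1 was therefore the only one of the 5 whose groups did not overlap. Of all genes tested in cortex, 11.1% did not overlap, 5.88% with HET lower.

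HET 3 was singled out after the values were seen, because it lay at or near the WT range on the 5 genes. Leaving it out widens the gap between genotypes and narrows the HET spread, so the p-values of that fit are no separate test. Without HET 3, 4 of the 5 genes passed, in a fit where 30.7% of 14961 genes passed. Dlx1 was then at -1.73 ± 0.26 (adjusted p = 0.00161), Dlx2 at -1.39 ± 0.32 (0.0117), Dlx6os1 at -2.12 ± 0.21 (3.43e-04) and Sp8 at 1.25 ± 0.27 (0.0222), while Dlx5 was at -1.11 ± 0.38 (0.0546; edgeR's quasi-likelihood test with Benjamini-Hochberg adjustment). With HET 1 and HET 2 left out instead, a setting chosen after seeing the data in which the lone HET 3 is assumed to vary like the WT libraries, none passed, where 0.00649% of genes did. Dlx1 was then at 0.11 ± 0.30, Dlx2 at -0.12 ± 0.36, Dlx5 at 0.52 ± 0.43, Dlx6os1 at -0.16 ± 0.22 and Sp8 at -0.45 ± 0.37. The direction for Dlx1, Dlx5 and Sp8 thus turned with the choice of HET libraries, and that of Dlx2 and Dlx6os1 did not. With HET 3 alone, however, the values of Dlx2 and Dlx6os1 were smaller than their SE, so their direction there is not settled.

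Other gene lists split the cortex libraries the same way. The values given are mean log2(CPM + 1) over a list minus its mean over the 6 cortex libraries. The 20 cell cycle genes were at 0.40, 0.43 and -0.26 in HET 1, HET 2 and HET 3 and at -0.28, -0.11 and -0.18 in WT 1, WT 2 and WT 3. The 14 pan-neuronal genes were at -0.31, -0.31 and 0.24 in HET and 0.09, 0.07 and 0.21 in WT. Both lists thus set HET 1 and HET 2 apart from the other 4 libraries, in opposite directions. The 6 red blood cell genes summed to 928, 1148 and 375 CPM in HET and 293, 378 and 447 CPM in WT, and 2 of them were at 0 in every library. The 8 choroid plexus genes summed to 14.2, 259 and 449 CPM in HET and 1581, 6.19 and 1215 CPM in WT, a split that did not follow the Dlx values. None of these lists had a called gene in cortex, and their part in the Dlx and Sp8 values was not tested. Xist was high in HET 2, WT 2 and WT 3 and near 0 in HET 1, HET 3 and WT 1, so sex markers did not follow the split.

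**Figure D3:**
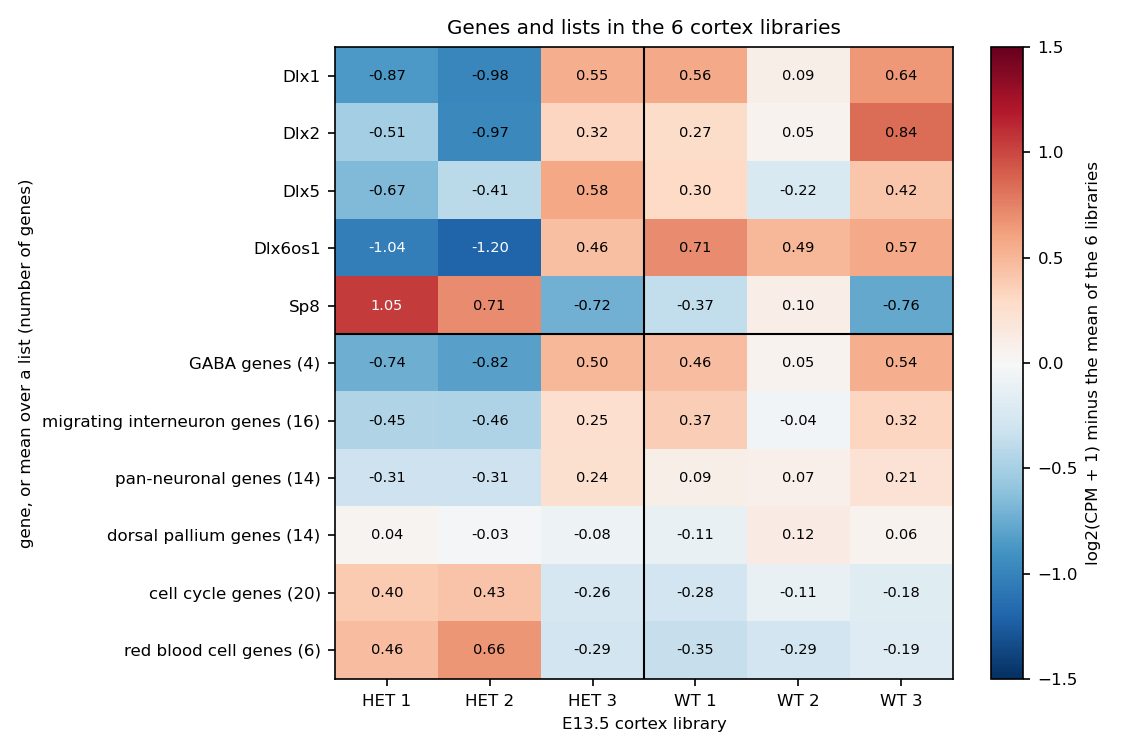
Log2(CPM + 1) minus the mean of the 6 E13.5 cortex libraries, for 5 genes and, below the line, as the mean over 6 gene lists; columns are the 3 HET and 3 WT libraries. HET 1 and HET 2 are low on the Dlx genes and GABA genes and high on Sp8 and cell cycle genes, while HET 3 lies with WT.

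Migrating interneurons carry other transcripts besides the Dlx genes. All 4 GABA genes had negative fold changes in cortex, with a median of -0.72, and none passed the test. Slc32a1, the vesicular GABA transporter, was at -0.73 ± 0.43, Gad1 at -0.71 ± 0.55 and Gad2 at -0.80 ± 0.51. Of 16 genes of migrating interneurons, which include the GABA genes, 14 were below 0 and none passed, with a median of -0.43. Lhx6 was at -0.82 ± 0.55 and Erbb4, a neuregulin receptor of migrating interneurons, at -0.79 ± 0.38. The GABA genes divided the libraries as the Dlx genes did, at -0.74, -0.82 and 0.50 in HET against 0.46, 0.05 and 0.54 in WT on the scale of the list means above. Without HET 3, all 4 GABA genes passed as lower (median -1.43), and of the 16 genes 8 passed as lower and 2 as higher (median -0.89), in the fit where 30.7% of genes passed. Lhx6 was then at -1.87 ± 0.22 and Erbb4 at -0.96 ± 0.43. With HET 3 as the only HET library, none of the 16 passed, where 0.00649% of genes passed, and the medians were 0.14 for the GABA genes and 0.06 for the 16 genes, with Lhx6 at 0.19 ± 0.23 and Erbb4 at -0.52 ± 0.57. The 14 dorsal pallium genes did not follow the split, with list means of -0.11 to 0.12 in all 6 libraries. Dlx1 in cortex rests on 58 to 271 counts per library. Its values moved with interneuron genes, but also with the pan-neuronal list (-0.31, -0.31 and 0.24 in HET) and opposite to the cell cycle list. On the scale of the list means, Dlx1 was at -0.87 and -0.98 in HET 1 and HET 2, lower than the GABA and pan-neuronal lists. What lay behind the movement was not tested, and how many interneurons were present was not measured.

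In the adult hippocampus all 8 genes were tested and none passed between HET and WT, where 1.07% of 15283 genes passed, 164 in all. None of the 8 was under an unadjusted p of 0.05, as 15.6% of all genes were, and DESeq2, which called 445 genes (3.30%), and limma-voom called none of them. Dlx1 had 8.65, 10.8 and 10.4 CPM in HET and 11.2, 9.69 and 10.15 CPM in WT. Dlx6os1 had 17.4, 17.4 and 17.003 CPM in HET and 15.6, 18.6 and 20.5 CPM in WT. Both had overlapping groups, with log2 fold changes of -0.05 ± 0.12 and -0.07 ± 0.10. Dlx2 was at 0.09 ± 0.15, Dlx5 at -0.21 ± 0.20, Gsx1 at 0.22 ± 0.47 and Gsx2 at -0.00 ± 0.59. Dlx6 had the largest fold change, 0.51 ± 0.29 (adjusted p = 0.427, edgeR's quasi-likelihood test with Benjamini-Hochberg adjustment), from 1.54, 1.80 and 1.98 CPM in HET and 1.69, 0.953 and 1.11 CPM in WT, groups that overlapped through WT 1.

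Sp8 was the one gene whose hippocampal groups did not overlap. It had 2.12, 2.08 and 2.19 CPM in HET and 2.42, 2.37 and 2.63 CPM in WT, a log2 fold change of -0.21 ± 0.20 with adjusted p = 0.667 (edgeR's quasi-likelihood test with Benjamini-Hochberg adjustment). Of all genes in hippocampus, 20.8% did not overlap, 11.7% with HET lower. The 14 genes of adult interneurons had a median of -0.06 with none called, and Lhx6 was at -0.22 ± 0.11. The 9 genes of adult progenitors and neuroblasts had a median of -0.00, also with none called.

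Whether the genotype effect differed between tissues was tested in one fit of all 18 libraries. HET and WT MGE differ in sex markers, so in contrasts with MGE, effects of genotype and sex cannot be told apart. None of the 8 genes passed for cortex against MGE, where 0.0% of 16125 genes passed, for hippocampus against MGE (0.0062%) or for cortex against hippocampus (0.0124%). The lowest adjusted p in both contrasts with cortex was that of Dlx6os1, with a difference of -1.10 ± 0.45 for cortex minus MGE (adjusted p = 0.710) and -1.05 ± 0.47 for cortex minus hippocampus (adjusted p = 0.371, edgeR's quasi-likelihood test with Benjamini-Hochberg adjustment). Without cortex HET 3, Dlx1, Dlx2 and Dlx6os1 passed for cortex against MGE, where 6.40% of genes passed, and 4 of the 8 passed for cortex against hippocampus, where 17.1% of genes passed. With HET 3 as the only cortex HET library, none of the 8 passed in either contrast, where 0.012% and 0.00599% of genes passed, and the difference for Dlx6os1, cortex minus MGE, was -0.14 ± 0.19. These contrasts share their cortex libraries, so they are not separate lines of evidence.

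Adult hippocampus held a low level of each Dlx gene. Its mean was 2.15% and 2.09% of the MGE mean for Dlx1 in HET and WT, 1.24% and 1.11% for Dlx2, 2.61% and 3.20% for Dlx5, 4.20% and 2.82% for Dlx6 and 2.92% and 3.04% for Dlx6os1. Gad1, by contrast, stood at 179% and 160% of its MGE mean. Gad2 stood at 57.0% and 62.9%, Lhx6 at 3.21% and 4.09% and Sp9 at 2.59% and 3.23%. The shares of the Dlx genes thus lay nearer to those of Lhx6 and Sp9 than to those of the GABA-synthesising enzymes.

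Compared with cortex of the same genotype, 6 of the 8 genes passed in HET hippocampus and 5 in WT hippocampus, where 80.2% and 78.9% of all genes passed. Of all genes, 39.4% passed as higher and 40.8% as lower in HET hippocampus, and 38.6% and 40.2% in WT hippocampus. Age and region differ together in this comparison and cannot be told apart. Dlx6 had the widest gap of the Dlx genes, 4.05 ± 0.42 in HET and 3.01 ± 0.42 in WT on the log2 scale. Dlx6os1 was higher in hippocampus by 2.07 ± 0.34 in HET and 1.03 ± 0.32 in WT. Dlx1 passed in HET (1.32 ± 0.35) but not in WT (0.56 ± 0.34), a contrast that rests on the same 3 HET cortex libraries: the HET value was 2.28 ± 0.23 without cortex HET 3 and 0.39 ± 0.25, which did not pass, with HET 3 alone. Those of Dlx6os1 were 3.11 ± 0.15 and 1.10 ± 0.17, both passing. Dlx2 and Dlx5 passed in neither genotype: Dlx2 was at 0.67 ± 0.31 in HET and -0.24 ± 0.30 in WT. Without cortex HET 3 both passed in HET, at 1.29 ± 0.29 for Dlx2 and 1.59 ± 0.32 for Dlx5, and with HET 3 alone they were at -0.04 ± 0.31 and -0.09 ± 0.33. The WT contrast changed too, because all 18 libraries share one fit. Without cortex HET 3, 7 of the 8 genes passed in WT, all but Dlx2, where 13130 of 16319 genes passed. Sp8 was lower in hippocampus, by a log2 difference of -3.84 ± 0.40 in HET (-2.54 ± 0.32 with cortex HET 3 alone) and -2.77 ± 0.39 in WT. Gsx2, with no count in cortex, had 4, 22 and 14 counts in HET hippocampus and 5, 17 and 21 in WT, and Gsx1 had 16, 20 and 16 counts in HET and 21, 20 and 6 in WT.

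The genes did not scale together between tissues, which ratios of counts within a library show without any scaling factor. The ratios of 5 gene pairs were chosen after the values were seen and gave 30 exact permutation tests (two-sided, on log2 ratios with 0.5 added to each count), adjusted by Benjamini-Hochberg. Dlx6 per Dlx5 count averaged 0.312 ± 0.0545 and 0.341 ± 0.0286 in HET and WT MGE, 0.0568 ± 0.0181 and 0.0534 ± 0.0428 in cortex, and 0.497 ± 0.0555 and 0.297 ± 0.0303 in hippocampus (SD, n = 3). All 6 cortex libraries lay below all 6 MGE libraries, with p = 0.00217 by the exact permutation test, the smallest that 6 against 6 allows, and an adjusted p of 0.00928. The neighbours Dlx5 and Dlx6 thus did not keep their proportion in cortex, where Dlx6 rests on 2 to 10 counts per library. In hippocampus the ratio was 0.453 to 0.559 in HET and 0.269 to 0.329 in WT, without overlap (exact permutation p = 0.1, the smallest that 3 against 3 allows, adjusted p = 0.214).

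Dlx2 per Dlx1 count averaged 1.16 ± 0.0837 and 1.13 ± 0.121 in HET and WT MGE, 1.17 ± 0.318 and 1.04 ± 0.196 in cortex, and 0.667 ± 0.0223 and 0.604 ± 0.0976 in hippocampus. The log2 ratio differed by -0.78 for hippocampus minus cortex and by -0.85 for hippocampus minus MGE, each with no overlap and p = 0.00217 by the exact permutation test (adjusted p = 0.00928). MGE and cortex did not differ beyond their spread (exact permutation p = 0.615). Dlx1as per Dlx1 count was highest in cortex and lowest in MGE, with 0.539 ± 0.0374 and 0.529 ± 0.0792 in HET and WT MGE, 1.67 ± 0.227 and 1.69 ± 0.0783 in cortex, and 1.13 ± 0.293 and 1.09 ± 0.180 in hippocampus. MGE lay below cortex without overlap (log2 difference -1.65, MGE minus cortex, exact permutation p = 0.00217, adjusted p = 0.00928). Hippocampus lay above MGE without overlap (1.05, exact permutation p = 0.00217, adjusted p = 0.00928) and below cortex with overlap (-0.60, exact permutation p = 0.00433, adjusted p = 0.0162). HET and WT did not differ beyond their spread in this ratio in any tissue, with exact permutation p of 0.8 to 0.9. Reads from the exon bases that Dlx1 and Dlx1as share cannot be assigned, and their part in this ratio was not tested.

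**Figure D4:**
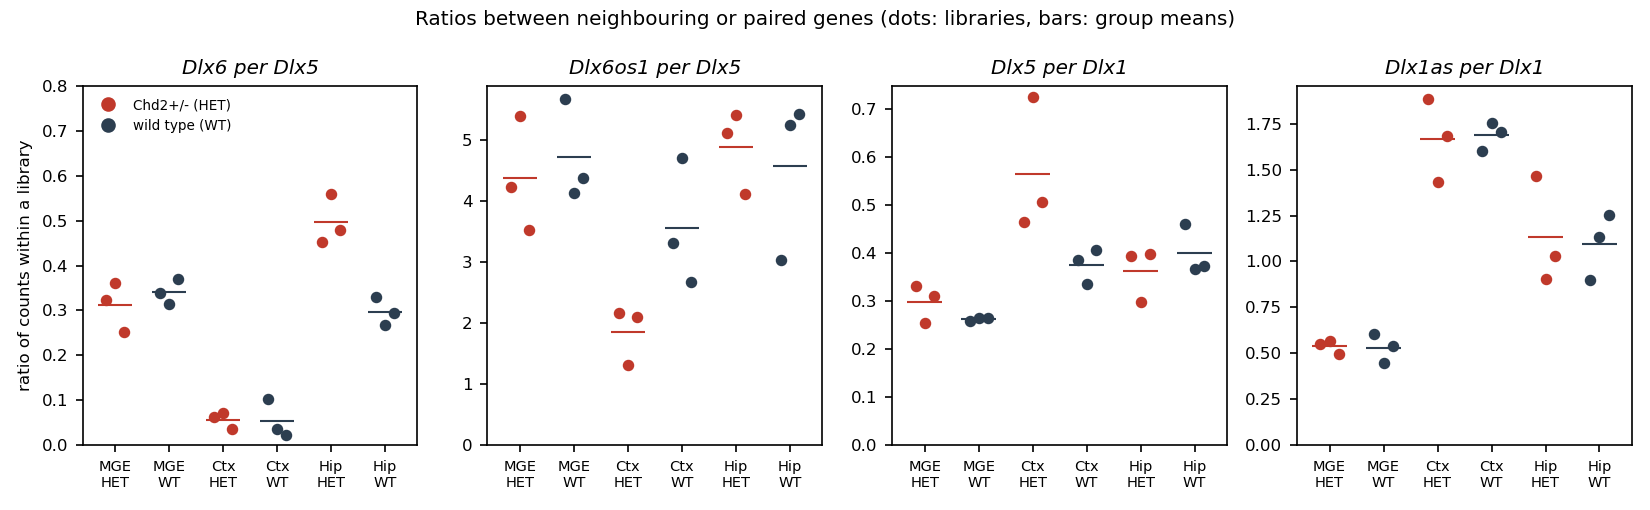
Ratio of counts within each library for 4 pairs of genes, on linear axes from 0; dots are libraries and bars are means of 3, with HET left of WT in each tissue. Dlx6 per Dlx5 is at most 0.102 in cortex, and Dlx6os1 per Dlx5 in cortex is lower in all 3 HET libraries than in any WT library.

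Within cortex, 2 ratios separated the genotypes in all 6 libraries, HET 3 included. Both hold the Dlx5 count, so they are not separate results. The share of other gene pairs that separate in this way was not computed. Dlx6os1 per Dlx5 count was 2.16, 1.31 and 2.102 in HET and 3.32, 4.71 and 2.66 in WT. Over summed counts it was 1.95 in HET (95% counting interval 1.65 to 2.32) and 3.38 in WT (2.93 to 3.92). These intervals cover counting error only and leave out the spread between libraries, which in WT ran from 2.66 to 4.71. Dlx5 per Dlx1 count was 0.464, 0.724 and 0.506 in HET and 0.386, 0.335 and 0.405 in WT. Each had an exact permutation p of 0.1, the smallest that 3 against 3 allows, and an adjusted p of 0.214, so neither passed. In MGE and hippocampus both ratios overlapped between the genotypes. The other 3 ratios overlapped between the genotypes in cortex, with exact permutation p of 0.6 to 0.8. No ratio was thus shown to differ between HET and WT cortex.

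The genes whose pattern was most like each member were found by the smallest root-mean-square difference of centred log2(CPM + 1). Over 18 libraries and 13985 genes, the nearest to Dlx1 were Sp9 (0.285), Dlx6os1 (0.311) and Dlx2 (0.383). The nearest to Dlx5 was Vax1 (0.235), a homeobox gene of the ventral forebrain, followed by Sp9 (0.298) and Lhx6 (0.305). Dlx6 had Gm5607 (0.252) and Slc18a2, a vesicular monoamine transporter (0.309), nearest. Of the 5 genes nearest to Dlx1, 3 were members of the same 8, while Sp8 had none, its nearest being Id4 (0.309), Bach2 (0.337) and Tgif1 (0.360). These distances mostly describe the contrast between tissues. Over the 6 cortex libraries alone (13334 genes), Dlx1 had Gabrb2 (0.0796), Bend6 (0.0806) and Fabp3 (0.0812) nearest. Dlx2 had Gnal (0.0909), Ube2ql1 (0.102) and Slc32a1 (0.118), and Dlx5 had Scube1 (0.0875), Ntsr1 (0.09997) and Sst, an interneuron neuropeptide (0.101). Sp8 in cortex had Lef1 (0.165), Eya1 (0.170) and Dach1 (0.175) nearest.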

How the data were processed

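RNA of 18 libraries was sequenced after poly(A) selection, per the labels' protocols. The deposited table holds raw counts per gene symbol, which the authors did not normalise. FastQC, Trimmomatic, TopHat2 2.1.1, SAMtools and DESeq2, with the build mm10, come from the submitters' processing notes, and how reads were counted per gene, and on which strand, is not given in the sources used. Counting error falls with depth, 26841671 to 38802765 counts per library.

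Genes passing filterByExpr (minimum count 10, minimum total 15) were tested with edgeR 4.0.16's robust quasi-likelihood F test after TMM scaling in R 4.3.3, with Benjamini-Hochberg adjustment over all genes and a threshold of 0.05. HET was compared with WT per tissue, and tissues and interactions in one fit of 18 libraries. The SE is the log2 fold change divided by the square root of F. The procedure was tested on simulated data. The settings tried besides were upper-quartile and RLE scaling, DESeq2 1.42.0, no filter, limma-voom (limma 3.58.1), one 18-library fit, a replicate block and leaving out libraries. Members, lists and the rule on named genes (all 8 members, up to 4 genes with the lowest p of each list described, Chd2) were chosen with earlier results of these data known. Genes named beside these, such as Dlx3, Dlx4 and Xist, were chosen after their values were seen. Values of another gene in these lists are not reported here.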

Additional observations from a re-analysis of the deposited data

How the results depend on the processing

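The counts of the 8 genes called stayed within 1.5 times the reported ones under upper-quartile and RLE scaling, DESeq2, no filter, limma-voom, the 18-library fit and the replicate block. Without single libraries, the count between HET and WT ranged from 0 to 4 in cortex, that for cortex against MGE from 0 to 3 and that for cortex against hippocampus from 0 to 4, the upper ends all without cortex HET 3. For hippocampus against cortex the count ranged from 6 to 8 in HET and from 5 to 7 in WT, the upper ends again reached without cortex HET 3. With all libraries kept, the other settings gave 5 to 6 in WT, with Dlx5 passing at the upper end. Directions turned without single libraries for genes near 0: in MGE Dlx1 (-0.24 to 0.038), Dlx2 (-0.22 to 0.069), Dlx5 (-0.076 to 0.22), Dlx6 (-0.24 to 0.15), Dlx6os1 (-0.095 to 0.069) and Sp8 (-0.13 to 0.42), in hippocampus Dlx1 (-0.11 to 0.036), Dlx2 (-0.025 to 0.17), Dlx6os1 (-0.17 to 0.0097), Gsx1 (-0.19 to 0.53) and Gsx2 (-0.55 to 0.41), and for Dlx2 in WT hippocampus minus WT cortex (-0.42 to 0.055). Gsx2 in hippocampus was at 0.026 with upper-quartile scaling, and with cortex HET 1 and HET 2 left out, Dlx1, Dlx5 and Sp8 were at 0.11, 0.52 and -0.45, their differences for cortex minus MGE at 0.21, 0.44 and -0.56, and Dlx2 and Dlx5 in HET hippocampus minus HET cortex at -0.037 and -0.095. The cause was not tested. Replicate numbers did not pair the libraries (same-number correlations -0.211 to 0.227). With them as a block, 0 of the 8 genes were called between HET and WT in each tissue and 8 in HET hippocampus against HET cortex, where Dlx2 and Dlx5 also passed under RLE scaling and DESeq2. Over all genes, calls in hippocampus were 164, against 445 with DESeq2, 80 with the block, 291 without the filter and 11 in the 18-library fit, and in MGE 7 against 33 with DESeq2. Dlx6, Gsx1 and Gsx2 in cortex are limited by depth.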
